A study of Homo sapiens with 4 samples.

Results

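The Y-box and cold-shock proteins and their companions on mRNA were followed in DU145 prostate carcinoma cells after knockdown of DCUN1D1. The 9 genes were YBX1, YBX3, CIRBP, RBM3, PABPC1, PABPC4, IGF2BP2, IGF2BP3 and ELAVL1, of 19774 genes measured. Every probe set naming 1 of them alone was taken, which gave 27 of 40914 probe sets, a probe set being a group of short probes for 1 transcript. The genes were chosen from the measured difference between DCUN1D1 knockdown and control, in which YBX3 ranked first among the brightest probe sets of genes past the fold bound described below. Their differences are therefore a description of these arrays, with no test.

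DU145 is an established, androgen-independent line grown from a metastasis of a human prostate carcinoma. RNA was measured on 4 Affymetrix arrays: 2 of cells described as stably transduced with a lentivirus carrying an shRNA against GFP (DU145-GFP, the control) and 2 of cells transduced to deplete DCUN1D1 by shRNA (DU145-DCUN1D1-KD). DCUN1D1 promotes the attachment of the ubiquitin-like protein NEDD8 to cullins. The comparison addressed which transcripts differ when DCUN1D1 is depleted. All 4 cultures were kept for 16 h in DMEM with serum before extraction, and 1 µg of total RNA was labelled for each. The records describe stable transduction and this culture time, whereas the methods describe RNA collected within days of infection, and the sources do not settle which holds. The records also carry the word DMSO with no dose or group. The arrays are called biological duplicates, and nothing says whether the same or different shRNAs stand behind the pair of knockdown arrays, although the methods name more than one.

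These proteins coat mRNA and set how long it lasts and how well it is translated. Y-box proteins carry a cold-shock domain and package mRNA into particles, CIRBP and RBM3 are small glycine-rich proteins induced by mild cold, and the cytoplasmic poly(A)-binding proteins hold the tail of the message. IGF2BP proteins and ELAVL1 (HuR) bind within the message and stabilise many growth-related transcripts in tumour cells.

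The promoters of YBX3, CIRBP and RBM3 are shown because Y-box proteins take their name from the Y box, a promoter element that contains an inverted CCAAT. The 250 bases before the annotated start are given 5′ to 3′ on the gene's strand, from RefSeq on GRCh38.p14, with CCAAT or its reverse complement ATTGG in capitals. The order is YBX3 (chr12:10723324-10723573, minus strand), CIRBP (chr19:1269082-1269331, plus strand) and RBM3 (chrX:48574234-48574483, plus strand).
YBX3: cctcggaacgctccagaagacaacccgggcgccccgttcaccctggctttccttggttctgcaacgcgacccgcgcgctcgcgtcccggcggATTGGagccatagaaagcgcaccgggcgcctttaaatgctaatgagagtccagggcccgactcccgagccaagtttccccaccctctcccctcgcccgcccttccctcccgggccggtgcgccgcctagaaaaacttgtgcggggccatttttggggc
CIRBP: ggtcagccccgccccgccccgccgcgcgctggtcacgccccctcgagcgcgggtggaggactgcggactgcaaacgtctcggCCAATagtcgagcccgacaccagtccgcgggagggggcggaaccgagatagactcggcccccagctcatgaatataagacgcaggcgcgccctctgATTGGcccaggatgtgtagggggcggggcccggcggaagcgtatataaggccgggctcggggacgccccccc
RBM3: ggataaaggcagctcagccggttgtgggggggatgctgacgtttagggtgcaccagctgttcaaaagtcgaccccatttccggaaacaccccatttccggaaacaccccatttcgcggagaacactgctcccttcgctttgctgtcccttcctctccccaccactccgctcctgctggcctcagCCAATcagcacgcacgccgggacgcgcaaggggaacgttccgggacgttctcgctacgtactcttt
In YBX3 the motif starts 158 bases before the gene, in CIRBP 168 and 72 bases before it, and in RBM3 66 bases before it. CIRBP and RBM3 also hold the longer form CTGATTGG on one strand or the other, which overlaps an ATTGG. Windows were counted for 6 of the 9 genes, with 7 windows in all, of which 5 hold CCAAT on either strand and 3 hold CTGATTGG on either strand. PABPC4 and ELAVL1 had no matched window, and PABPC1 was left out of these counts by choice. Of all 35116 windows, 32.0% hold CCAAT and 3.81% hold CTGATTGG. Because of that choice, the counts of the genes are not like for like with the full set. Among the windows not shown, that of YBX1 and 1 of IGF2BP2 hold CCAAT on either strand. Those of IGF2BP3 and the other of IGF2BP2 do not. A match describes letters and not a bound site.

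The arrays were unequal. Values of a group are given here with replicate 1 first. In knockdown replicate 1, 1416 probe sets (3.46% of those naming 1 gene) stood more than 2 log2 units above each of the other 3 arrays, against 0 to 5 in the others, and it correlated with them at 0.661 to 0.746 over probe sets, where the other pairs reached 0.827 to 0.916. The array's own control for the 3′ end of GAPDH read 10.82 in that array and 4.68 to 5.09 elsewhere, and that of ACTB 8.30 against 3.95 to 4.35. The control for the middle of GAPDH differed less, at 11.1 against 9.05 to 10.0. Other inequalities did not rest on that array. The BioB control read 8.22 and 10.49 in DU145-GFP and 6.37 and 6.22 in DU145-DCUN1D1-KD. In control replicate 2, 48 probe sets stood more than 2 log2 units below each other array, against 0 in the others. The nonspecific control whose probes hold 20 G or C bases, used here as the background mark of each array, read 2.97 and 3.30 in the control arrays and 2.48 and 2.51 in DU145-DCUN1D1-KD. The brightest DCUN1D1 probe set read 2.55 and 1.99 in DU145-GFP and 1.60 and 1.45 in DU145-DCUN1D1-KD, under that mark in all 4 arrays. The part of these array differences in the results was not tested, and results that rest on knockdown replicate 1 are given with and without it.

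A probe set was called past the fold bound when its fold change exceeded 1.2 at the lower end of a two-sided 90% interval built on the standard error that limma moderates across probe sets. Over all probe sets 1.18% were higher and 2.38% lower past it after knockdown. Of the 27 probe sets of the mRNA-binding genes, 1 was higher (YBX3) and 1 lower (CIRBP). Of the 27, 3 (11.1%; both of YBX1 and 1 of PABPC1) read above the nonspecific control in all 4 arrays and 12 (44.4%) in none, against 4.39% and 76.1% of all probe sets. With limma and Benjamini–Hochberg adjustment at 0.05, 0 of 40914 probe sets were called, with 3085 at an unadjusted p under 0.05 and a smallest adjusted p of 0.625; the methods' t-test called 1 after adjustment.

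**Figure D1:**
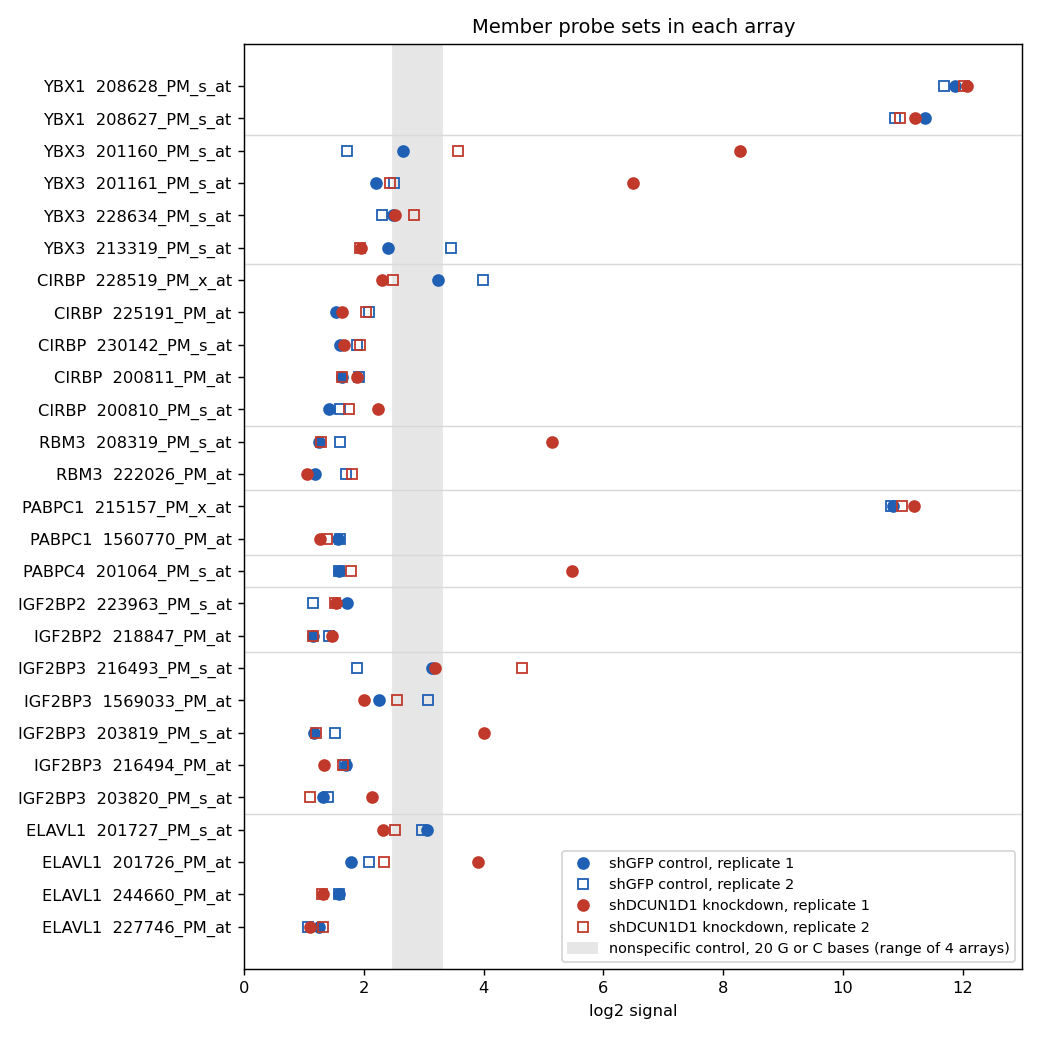
Signal on the log2 scale (horizontal axis) of the 27 probe sets of the 9 genes (rows) in each array, in blue for DU145-GFP and red for DU145-DCUN1D1-KD, filled for replicate 1 and open for replicate 2; the grey band is the range of the nonspecific control. The probe sets of YBX1 and 1 of PABPC1 lie near 11 to 12 in all arrays. The filled red circles of YBX3 201160_PM_s_at and 201161_PM_s_at, RBM3 208319_PM_s_at and PABPC4 stand alone to the right.

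YBX3 (chr12:10699089-10723323), also called DbpA or CSDA, is a Y-box protein that represses translation and binds DNA. Its brightest probe set, 201160_PM_s_at, read 2.65 and 1.71 in DU145-GFP and 8.29 and 3.57 in DU145-DCUN1D1-KD, on the log2 scale. Both knockdown arrays lay above both controls, but they differed from each other by more than knockdown replicate 2 differed from the controls. The difference was 3.75 log2 units (SE 1.59, n = 2 a group), with a lower bound of 1.47-fold, and this is the value the genes were chosen by. Both control values lay under the nonspecific control of their arrays, so the size of the difference is uncertain. With them raised to that mark, a setting chosen after seeing the data, it was 2.79, or 0.43 without knockdown replicate 1. These values also hold the gap between the marks, which were higher in the control arrays. As measured, the difference was 1.39 without knockdown replicate 1 and 6.11 without knockdown replicate 2, past the bound in both cases. It was 4.22 without control replicate 1 and 3.28 without control replicate 2, neither past the bound. Among all probe sets it ranked 14th by difference, and 260th without knockdown replicate 1. In RNA of a whole culture, more RNA per cell and more cells that express a gene cannot be told apart.

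The other probe sets of YBX3 differed in pattern. The second, 201161_PM_s_at, read 2.20 and 2.50 in DU145-GFP and 6.50 and 2.44 in DU145-DCUN1D1-KD, so that its difference of 2.12 (SE 1.34) became 0.09 without knockdown replicate 1. The third, 213319_PM_s_at, read 2.40 and 3.45 in DU145-GFP against 1.94 and 1.93, a difference of −0.99 (SE 0.42) with both knockdown arrays below the controls. Its sign was opposite to that of the brightest probe set, and the difference was −1.51 without control replicate 1. It read above the nonspecific control in control replicate 2 alone. The fourth, 228634_PM_s_at, read 2.48 and 2.31 against 2.51 and 2.83, a difference of 0.28 (SE 0.29). All of these probe sets carry the suffix that marks probes shared by several transcripts, and the mean over them differed by 1.29. Which of them tracks YBX3 mRNA was not tested.

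The profiles nearest to that of the brightest YBX3 probe set, by Euclidean distance over 4 arrays after centring each on its own mean, were those of PGK1 (0.39), RPL23A (0.55), CAV1 (0.57), ATP5F1A (0.61) and SRSF3 (0.63). PGK1, a glycolytic enzyme, read 3.22 and 2.60 in DU145-GFP and 8.64 and 4.12 in DU145-DCUN1D1-KD. With 4 arrays, each of these 5 genes had its peak in knockdown replicate 1. That follows from choosing them by nearness to a YBX3 profile that peaks there.

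YBX1 (chr1:42682418-42703805), the main cytoplasmic packaging protein of mRNA and a DNA-binding factor, gave strong signal in every array. Probe set 208628_PM_s_at read 11.88 and 11.69 in DU145-GFP and 12.07 and 12.03 in DU145-DCUN1D1-KD. These groups were apart, by 0.26 (SE 0.10), or 0.24 without knockdown replicate 1, short of the fold bound. Probe set 208627_PM_s_at read 11.37 and 10.87 against 11.20 and 10.96, overlapping, with a difference of −0.04 (SE 0.21). A further probe set that names YBX1 together with its pseudogene YBX1P2 was left out of the counts, and read 2.98 and 2.63 in DU145-GFP against 1.69 and 1.61.

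CIRBP (chr19:1269332-1274880), a cold-inducible RNA-binding protein that also responds to cell stress, had 5 probe sets. The brightest, 228519_PM_x_at, read 3.24 and 3.98 in DU145-GFP and 2.30 and 2.48 in DU145-DCUN1D1-KD. Both knockdown arrays lay below the controls and below the nonspecific control of their own arrays. The difference was −1.22 (SE 0.42), with a lower bound of 1.30-fold. It was −1.13 without knockdown replicate 1 and −0.85 without control replicate 2, in both cases short of the bound, and −1.59 without control replicate 1 and −1.31 without knockdown replicate 2, past it. The suffix of this probe set marks probes that can match other sequences. With the knockdown values raised to the nonspecific control, the difference was −1.12. That value also holds the gap between the marks, which were lower in the knockdown arrays. The other 4 probe sets read 1.41 to 2.23 in all arrays, under the nonspecific control of each. Of these, 200810_PM_s_at differed by 0.48 (SE 0.23), with both knockdown arrays above the controls. The groups overlapped for 200811_PM_at (−0.02, SE 0.20), 225191_PM_at (0.02, SE 0.27) and 230142_PM_s_at (0.05, SE 0.21).

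RBM3 (chrX:48574484-48581162), the cold-shock relative of CIRBP that supports translation at low temperature, had 2 probe sets. Probe set 208319_PM_s_at read 1.25 and 1.60 in DU145-GFP and 5.14 and 1.28 in DU145-DCUN1D1-KD. Its signal over background thus came from 1 array, and the difference of 1.79 (SE 1.24) turned to −0.15 without that array. The second, 222026_PM_at, read 1.18 and 1.70 against 1.04 and 1.79, with a difference of −0.02 (SE 0.31). The cold-induced pair thus held opposite signs in their brightest probe sets, CIRBP with both knockdown arrays low and RBM3 with 1 array high.

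PABPC1, the major cytoplasmic poly(A)-binding protein, read 10.84 and 10.80 in DU145-GFP and 11.19 and 10.99 in DU145-DCUN1D1-KD with probe set 215157_PM_x_at. The groups were apart by 0.27 (SE 0.15), or 0.17 without knockdown replicate 1, and the difference was 0.06 after quantile normalization. Its suffix marks probes that can match other sequences, and its relative PABPC3 read 9.46 to 10.35 with a probe set of the same kind. The second PABPC1 probe set, 1560770_PM_at, read under the nonspecific control in all 4 arrays and differed by −0.25 (SE 0.13). PABPC4 (chr1:39560816-39576790), an inducible poly(A)-binding protein, read 1.58 and 1.59 in DU145-GFP and 5.48 and 1.78 in DU145-DCUN1D1-KD, by 201064_PM_s_at. Its difference of 2.04 (SE 1.2) was 0.19 without knockdown replicate 1.

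**Figure D2:**
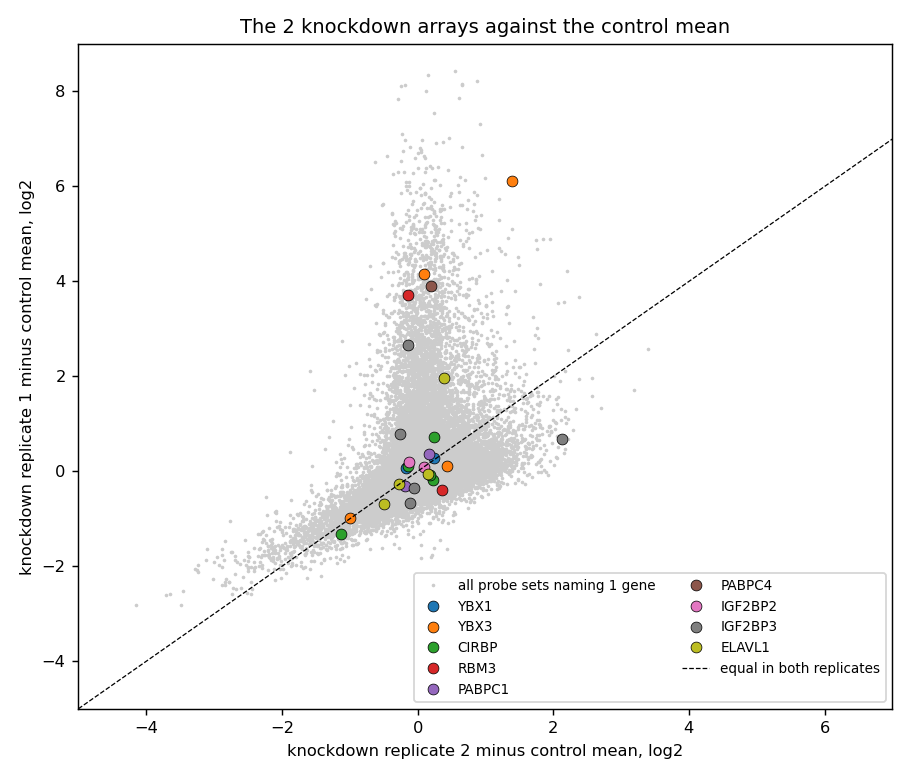
Difference from the control mean, in log2 units, of knockdown replicate 2 (horizontal axis) and knockdown replicate 1 (vertical axis), with all 40914 probe sets in grey, those of the 9 genes in colour and equal values on the dashed line. RBM3 208319_PM_s_at and the PABPC4 and second YBX3 probe sets stand high on the vertical axis and near 0 on the horizontal one. Far to the right lies 1 IGF2BP3 probe set.

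IGF2BP3 (chr7:23310209-23470491), an oncofetal protein that binds and stabilises mRNA, had 5 probe sets with different patterns. The brightest, 216493_PM_s_at, read 3.13 and 1.88 in DU145-GFP and 3.18 and 4.64 in DU145-DCUN1D1-KD. The groups were apart, though knockdown replicate 1 exceeded control replicate 1 by little, and the difference was 1.40 (SE 0.71), short of the fold bound. Without knockdown replicate 1 it was 2.13 and past the bound, and it was 0.68 without knockdown replicate 2 and 0.78 without control replicate 2. Probe set 203819_PM_s_at read 1.16 and 1.51 in DU145-GFP and 4.0 and 1.2 in DU145-DCUN1D1-KD, so that its difference of 1.26 (SE 0.91) became −0.14 without knockdown replicate 1. The peak thus fell in a different knockdown array for each of these probe sets of 1 gene. The groups overlapped for 1569033_PM_at (−0.38, SE 0.40) and 203820_PM_s_at (0.26, SE 0.35), and 216494_PM_at had both knockdown arrays below the controls (−0.20, SE 0.17). IGF2BP2 (chr3:185643130-185825042), its relative, read 1.14 to 1.72 in all arrays with both probe sets, under the nonspecific control, and differed by 0.09 (SE 0.22) for 223963_PM_s_at and 0.03 (SE 0.16) for 218847_PM_at, with overlapping groups.

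ELAVL1 (chr19:7958573-8005641), which binds AU-rich elements and protects messages from decay, had 4 probe sets that did not share a sign. The brightest, 201727_PM_s_at, read 3.05 and 2.96 in DU145-GFP and 2.31 and 2.51 in DU145-DCUN1D1-KD. The groups were apart by −0.59 (SE 0.30), or −0.49 without knockdown replicate 1. This probe set read above the nonspecific control in 2 of the 4 arrays, and that control was itself lower in the knockdown arrays. Probe set 201726_PM_at read 1.79 and 2.09 in DU145-GFP and 3.90 and 2.33 in DU145-DCUN1D1-KD, above the nonspecific control in knockdown replicate 1 alone. It was apart in the other direction by 1.18 (SE 0.57), or 0.39 without knockdown replicate 1. The other pair read 1.06 to 1.58, under the nonspecific control in all arrays, and differed by −0.27 (SE 0.12) for 244660_PM_at and 0.05 (SE 0.12) for 227746_PM_at. The mean over the ELAVL1 probe sets differed by 0.09.

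**Figure D3:**
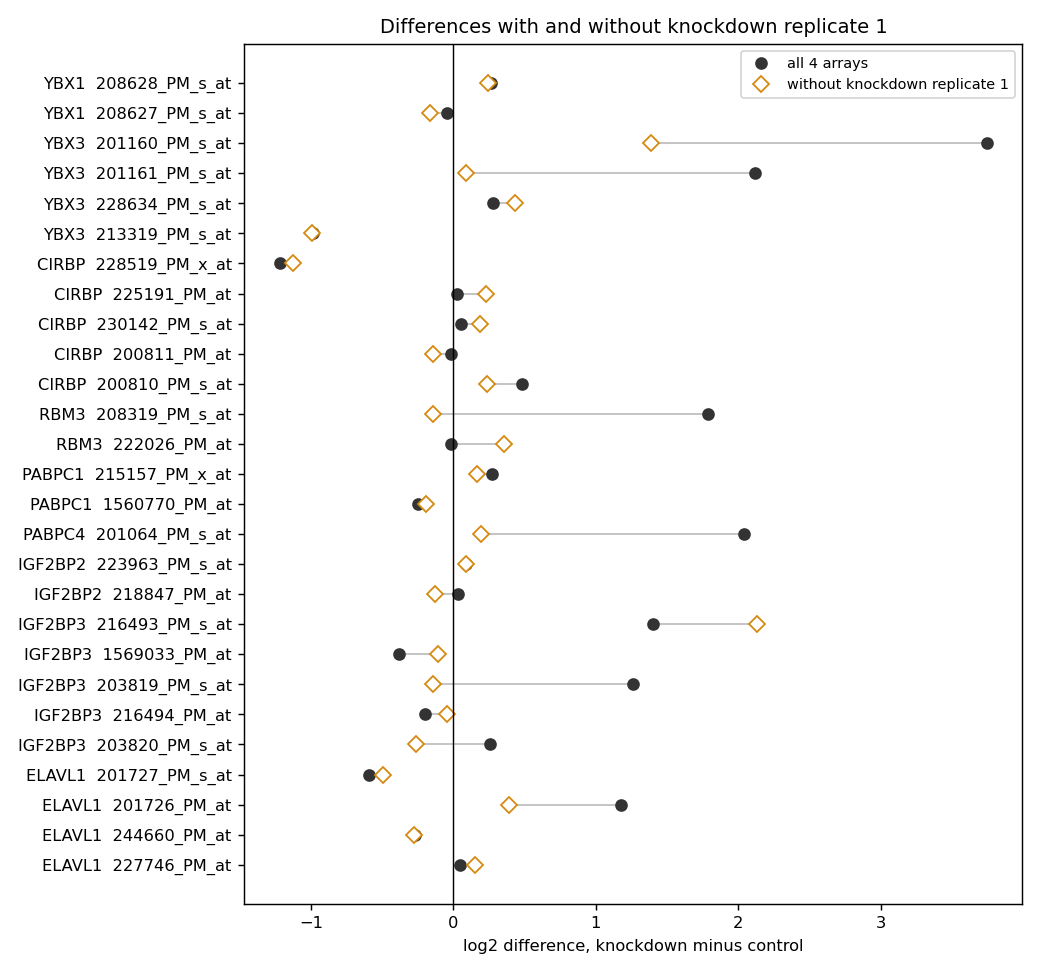
Difference between knockdown and control in log2 units (horizontal axis) of each probe set of the 9 genes (rows), from all 4 arrays (filled) and without knockdown replicate 1 (open diamonds). The YBX3 probe sets 201160_PM_s_at and 201161_PM_s_at go from 3.75 to 1.39 and from 2.12 to 0.09. RBM3 208319_PM_s_at and the PABPC4 probe set end near 0, at −0.15 and 0.19.

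Over the 27 probe sets, 8 had both knockdown arrays above both controls and 6 had both below, with 13 overlapping. Over all probe sets these patterns held for 17.9% and 25.0%. In knockdown replicate 1, 5 of the 27 stood more than 2 log2 units above each other array: 2 of YBX3, RBM3 208319_PM_s_at, PABPC4 and IGF2BP3 203819_PM_s_at. That is 18.5%, against 3.46% of all probe sets. The differences were positive for 17 (63.0%, against 48.3% of all probe sets) and negative for 10, with a median of 0.05 (−0.01 over all probe sets), or 0.09 without knockdown replicate 1 (0.01 over all).

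**Figure D4:**
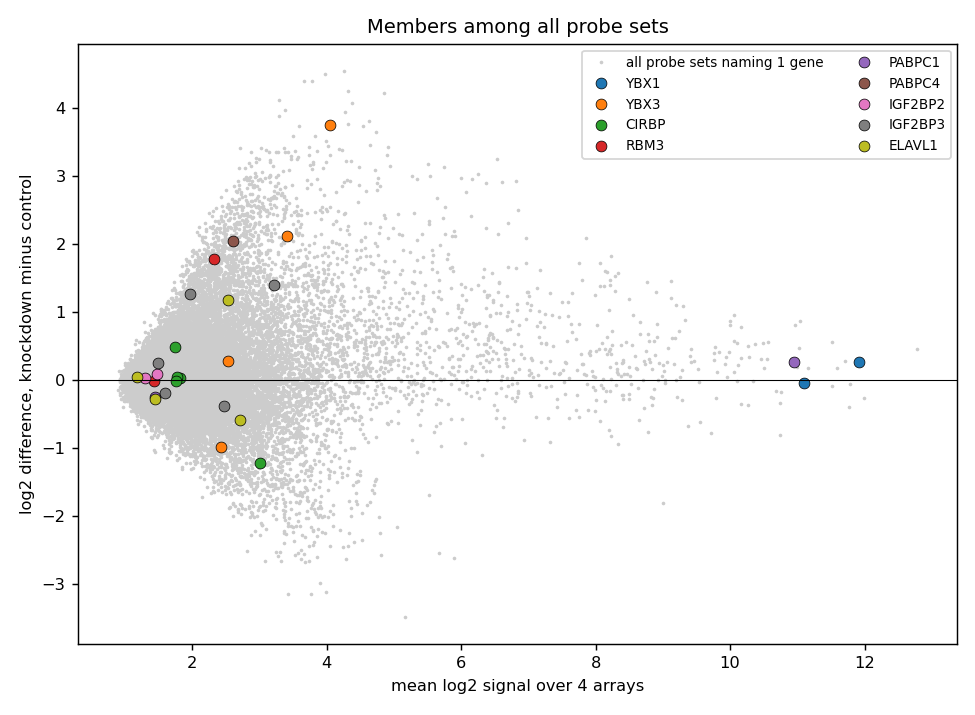
Difference between knockdown and control in log2 units (vertical axis) against the mean log2 signal over 4 arrays (horizontal axis), with all 40914 probe sets in grey and those of the 9 genes in colour. The brightest YBX3 probe set stands at 3.75 and the CIRBP one at −1.22. Both YBX1 probe sets and PABPC1 215157_PM_x_at lie to the right with differences from −0.04 to 0.27.

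Lists of related genes, written from general knowledge, were read by the brightest probe set of each gene, and over all 19774 genes 1.53% lay past the fold bound as higher and 3.39% as lower, the median difference being −0.01. Of the Y-box and cold-shock domain genes, 7 of 8 were measured, 1 was higher (YBX3), 0 lower, and the median was 0.24. Of the 7 glycine-rich relatives of CIRBP, 0 were higher and 1 lower (CIRBP), with a median of 0.20, and RBMX, a nuclear splicing regulator, read 1.41 and 1.61 in DU145-GFP and 5.73 and 1.90 in DU145-DCUN1D1-KD. Neither direction held any of the 13 poly(A)-binding genes and partners (median −0.03) or any of the 8 genes of the IGF2BP and coding-region determinant complex (0.17). The same was true of the 14 processing body genes (−0.03) and the 9 m6A readers and writers (0.11).

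The AU-rich element binders and the stress granule proteins held the other genes past the bound. Of 18 AU-rich element binders, 0 were higher and 1 lower, ELAVL3, a neuronal relative of ELAVL1, at 3.84 and 5.83 in DU145-GFP against 3.07 and 1.95, with a list median of 0.04. Its difference was −2.32 (SE 0.84), or −1.33 without control replicate 2 and −1.76 without knockdown replicate 2, neither past the bound. Of 13 stress granule and fragile X genes, 1 was higher and 1 lower, with a median of 0.27. ATXN2, a stress granule protein that binds PABPC1, read 2.90 and 2.01 against 3.47 and 4.18, a difference of 1.37 (SE 0.51), or 0.93 without control replicate 2 and 1.02 without knockdown replicate 2, neither past the bound. Its paralog ATXN2L read 3.45 and 3.79 against 2.30 and 1.27, a difference of −1.83 (SE 0.45) that was also past the bound, at −1.32 to −2.35, with each array left out. The ATXN2 values in DU145-GFP and the ATXN2L values in DU145-DCUN1D1-KD lay under the nonspecific control of their arrays. With those values raised to that mark, the differences were 0.69 for ATXN2 and −1.12 for ATXN2L. The mark was 2.97 and 3.30 in DU145-GFP and 2.48 and 2.51 in DU145-DCUN1D1-KD, so both differences also hold the gap between marks.

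Of the cell type markers, 1 of 6 epithelial markers, KRT8, read above the nonspecific control in all 4 arrays, at 3.25 to 3.73. KRT18, the partner keratin of KRT8, read 1.63 to 1.69 in 3 arrays and 7.62 in knockdown replicate 1, the array in which YBX3, RBM3 and PABPC4 peaked. CDH1, the adhesion molecule of epithelia, read 1.5 to 2.13 in all arrays, with a difference of −0.22 and overlapping groups. KRT19, EPCAM and CLDN4 differed by −0.53, −0.39 and −0.14, each with both knockdown arrays below both controls. All of them read under the nonspecific control in all 4 arrays. The median difference of the epithelial list was −0.18. The log2 values of the epithelial markers summed to 12.7 and 14.2 in DU145-GFP and 18.0 and 12.4 in DU145-DCUN1D1-KD. These sums add mostly readings under the nonspecific control, and the 18.0 holds the KRT18 value of 7.62. Of the markers of luminal prostate (4 measured), endothelial (5) and leukocyte cells (5), 0 read above the nonspecific control in all 4 arrays, and of 6 fibroblast markers 1 did. Summed log2 values ran from 9.38 to 10.5 for luminal prostate and from 11.9 to 14.1 for fibroblasts. They ran from 8.11 to 8.91 for endothelium and from 8.32 to 8.78 for leukocytes. No marker of any list was past the fold bound.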

How the data were processed

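For the 4 arrays the authors deposited log2 signals in 1 table. The submitters' notes name Affymetrix Expression Console without a version and the paper's methods name dChip, and nothing at hand settles which of them made these values. The scale was taken as log2, since the highest value outside the array controls, 13.03, is too large for scanner readings on other logarithms. Arrays give no read depth, so their number limits the precision. The standard errors and p-values from limma draw on the spread between samples called biological duplicates and on that of all probe sets.

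Gene names came from the platform annotation, and 40858 of the 40914 naming 1 gene matched RefSeq gene IDs (GRCh38.p14), with 0 symbols updated. Left out were 864 probe sets naming several genes, 12835 naming none and 102 controls. limma 3.58.1 in R 4.3.3 was fitted over all 40914 with a variance trend, and no scaling was added. The fold bound of 1.2 follows the methods' rule but uses limma's errors. An exact two-sided permutation test of 2 against 2 arrays cannot go below p = 0.333. The genes and lists were chosen with earlier results of these data known. The text names the probe sets of the 9 genes, and from each list at most 3 genes past the bound. RBMX, PABPC3 and the named epithelial markers were added after their values were seen. Alternatives were quantile normalization, median centring, scaling on nonspecific controls, filters, other error models and bounds, a replicate block and leaving out each array. Raising values under the nonspecific control to it was added after seeing the data.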

Additional observations from a re-analysis of the deposited data

How the results depend on the processing

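With 2 arrays a group, the counts past the fold bound moved with the processing, and the cause was not tested. Over all probe sets, 481 were higher and 974 lower, and with each array left out 47 to 4008 were higher and 503 to 1374 lower. The 27 probe sets of the mRNA-binding genes then held 0 to 8 higher and 0 to 2 lower. The lowest count of higher probe sets came without control replicate 2 and the highest without knockdown replicate 2, where limma called 2602 (0 with any other array left out). Without knockdown replicate 1, 1203 were higher.

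YBX3, the 1 higher probe set of the 27, was not past the bound above the median signal, with no variance trend, with unmoderated errors or at a bound of 1.5, so that 0 were higher in each. With no variance trend and with unmoderated errors 2 of the 27 were lower, and over all probe sets unmoderated errors gave 297 higher. The brightest probe set of each gene, fitted alone, gave 311 higher. A bound of 1.5 gave 105 higher and 310 lower, with 0 of the 27 in either direction. A plain fold above 2 with groups apart gave 1322 higher, 4 of them among the 27. Student's t-test called 1 probe set after adjustment. With a replicate block, 505 were higher and 669 lower, with 1 (YBX3) and 0 (CIRBP no longer past the bound) of the 27. The same-numbered arrays share only a number, with a correlation of their deviations of −0.04.

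For the brightest probe sets, signs changed for RBM3 without knockdown replicate 1 (−0.15), for IGF2BP2 without control replicate 2 (−0.20) and for ELAVL1 by the mean of its probe sets (0.09). Scaling on the nonspecific controls, which were lower by 0.345 log2 units after knockdown, would shift every difference up by that amount and gave 4.09 for YBX3. Signal near background limits most of these values.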
